A study of Homo sapiens with 6 samples.

Results

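The gene table of this RNA-seq experiment listed 10066 assembled loci, and 917 of them carried no gene name. The 661 loci described here are those without a name whose FPKM (fragments per kilobase of transcript scaled to library size, a level corrected for length and depth) averaged at least 1 over the 6 libraries. They made up 7.01% of the 9430 loci that passed the same limit. Of the nameless loci 72.1% passed it, against 95.8% of the named ones, 256 nameless loci stayed under it, and 8 nameless loci were at 0 in every library. Of the members, 158 would have had a mean under 1 without their highest library, so for these the limit was met through the library in which they were high. The 3 members just above the limit were MSTRG.14043, MSTRG.10561 and MSTRG.5945, each with a mean of 1.00 FPKM, and just below it were MSTRG.14811 with 0.996, MSTRG.27026 with 0.992 and MSTRG.18418 with 0.989 FPKM.

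The 3 human bladder cancer lines that carry an FGFR3 fusion were RT4 (FGFR3-TACC3), RT112 (FGFR3-TACC3) and SW780 (FGFR3-BAIBP2L1, as the labels spell it). Each line was given DMSO, the solvent, or quisinostat, an inhibitor of histone deacetylases (HDACs), for 2 days, and polyA RNA was sequenced from 1 library per line and treatment. The dose was 50 nM in RT4, 10 nM in RT112 and 25 nM in SW780, so dose and line cannot be told apart. One of the 6 libraries has a misspelt line (SW781) in 1 of its labels and was placed by its title. No condition had a replicate within a line, and the depth of the libraries is unknown because the values are FPKM computed from coverage.

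A locus without a name arises when reads are assembled into transcripts with an annotation as guide. The assembler, StringTie, joins overlapping transcripts into a locus, numbers the loci along the genome with the prefix MSTRG, and leaves the name empty where no transcript of the locus matches an annotated gene. Such loci can be intergenic or antisense noncoding RNAs, detached ends of known genes, pieces of introns, or copies of repeated sequence. HDACs take acetyl groups off histones, and their inhibitors raise histone acetylation at promoters, at enhancers and at start sites that are otherwise silent.

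All 17 epithelial and urothelial markers examined had a row in the table, which is not to say that each was expressed in each line. KRT18 (keratin 18) ranged from 98.7 to 403 FPKM, while the uroplakin UPK3A was at 0 in both RT112 libraries and the basal keratin KRT5 was at no more than 0.0433 FPKM in RT4. The leukocyte and endothelial markers and the fibroblast genes DCN and PDGFRA had no row, and COL1A1 (fibrillar collagen) did not exceed 1.45 FPKM. The HDAC inhibitor response genes examined were mixed. CDKN1A, a cell cycle inhibitor, had log2 ratios of quisinostat over DMSO of 0.12 (RT4), 1.36 (RT112) and 0.52 (SW780), and GSN, an actin-severing protein, 0.93, 2.79 and 1.5. The histone gene H1F0 had 1.08, 0.45 and -0.04, CLU (clusterin) 0.09, 2.62 and -0.32, and TUBB3, a neuronal tubulin, -1.90, 0.54 and -0.61.

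The number in the locus name gives the order along the genome. Named loci could be matched to 1 gene of GENCODE 29 (GRCh38) in 98.4% of cases, and nameless loci were placed between the nearest named loci of the same chromosome. Both flanks were found for 634 members, 569 of them with a gap between the flanking genes and 65 between genes that overlap or lie in the other order. Gaps between neighbouring named loci that held a member had a median of 385 kb, and gaps without one a median of 89.8 kb. Another GENCODE gene that the table does not list lay in the gap for 517 members, a protein-coding one for 457 of the 569 and a noncoding RNA gene of the lincRNA, antisense or related types for 408. For 52 members the gap held no other annotated gene. Unlisted genes were not counted in the gaps without a member, which were narrower, so these counts describe the gaps of members only. The files give no start, end or strand for a nameless locus, so none was assigned to an annotated gene or given an exonic or intronic position. A member described as between named genes is numbered between them, and a place within the gap is not established.

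The members were not spread evenly. On chromosome Y they were 4 of 11 loci (36.4%), and on chromosome 21 they were 22 of 121 (18.2%), 14 of these between SMIM11B and RBM11. On chromosome 18 they were 18 of 132 (13.6%), and on chromosome 9 they were 40 of 375 (10.7%). The smallest gap with 3 or more members was that of 15163 bp between ZMYND19 and ARRDC1 near the end of chromosome 9. By number 10 members came between these genes, but their positions are not known, so a place within the gap is not established.

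The chromosome 21 members stood out by level and by their neighbours. Between SMIM11B and RBM11 the assembly numbered 22 loci, of which 8 were named and 14 were members. Among the named ones, 4 were the 5.8S ribosomal RNA genes RNA5-8SN1, RNA5-8SN5 (on 2 loci) and RNA5-8SN4. 5.8S is one of the RNAs cut from the long ribosomal precursor, which is encoded in tandem repeats on the short arms of several chromosomes, chromosome 21 among them. PolyA selection is meant to leave ribosomal RNA behind. GENCODE 29 names the 5.8S genes of this stretch RNA5-8SN2 and places 1 of them on the plus strand at chr21:8256781-8256933 (GRCh38), between the genes FP671120.4 and FP236383.1 that flank several members. The 4 copies for which its transcript file holds a sequence are identical and 153 bases long, and the sequence is shown because it is the named neighbour of these members and because a read that lies within it fits each copy equally well. Capitals are not used, since no part is singled out.
5.8S rRNA (RNA5-8SN2): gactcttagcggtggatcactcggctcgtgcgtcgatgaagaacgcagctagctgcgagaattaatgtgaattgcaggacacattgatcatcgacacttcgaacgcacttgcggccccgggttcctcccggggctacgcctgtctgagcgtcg

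The locus numbered directly after each 5.8S locus was a member in 4 of 4 cases (MSTRG.19408, MSTRG.19418, MSTRG.19424 and MSTRG.19435), and the 4 had means of 34.1 to 34.7 FPKM. In RT4 these 4 loci ranged from 43.9 to 56.1 FPKM with DMSO and from 18.9 to 23.1 with quisinostat. In RT112 they ranged from 34.3 to 42.6 and from 33.7 to 43.2 FPKM, and in SW780 from 23.8 to 26.2 and from 31.7 to 34.5. The log2 ratios of the 4 loci were -1.28 to -1.21 in RT4, where 14.0% of all loci were below -1. They were 0.40 to 0.46 in SW780, where 33.5% of all loci were above 0.3, and -0.06 to 0.02 in RT112. The loci share sequence neighbours and possibly reads, and are not replicates of each other.

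A second step of the same kind was seen after 3 of the 5.8S loci. MSTRG.19419, MSTRG.19425 and MSTRG.19436 had means of 91.8 to 111 FPKM, with 152 to 187 FPKM in RT4 DMSO and 67.8 to 81.1 in RT4 quisinostat. MSTRG.19426 and MSTRG.19437, next in number to them, had means of 219 FPKM each and differed by no more than 1.20% in any library. Among the members above 0 in all 6 libraries, 6 of 525 (1.14%) had another locus within 5% of them in every library, against 8 of 8373 named loci (0.0955%). The 3 member pairs were MSTRG.19426 with MSTRG.19437, MSTRG.19418 with MSTRG.19435, and MSTRG.30510 with MSTRG.30536. How reads that match more than 1 copy were shared between such loci is not given in the sources used here.

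**Figure D1:**
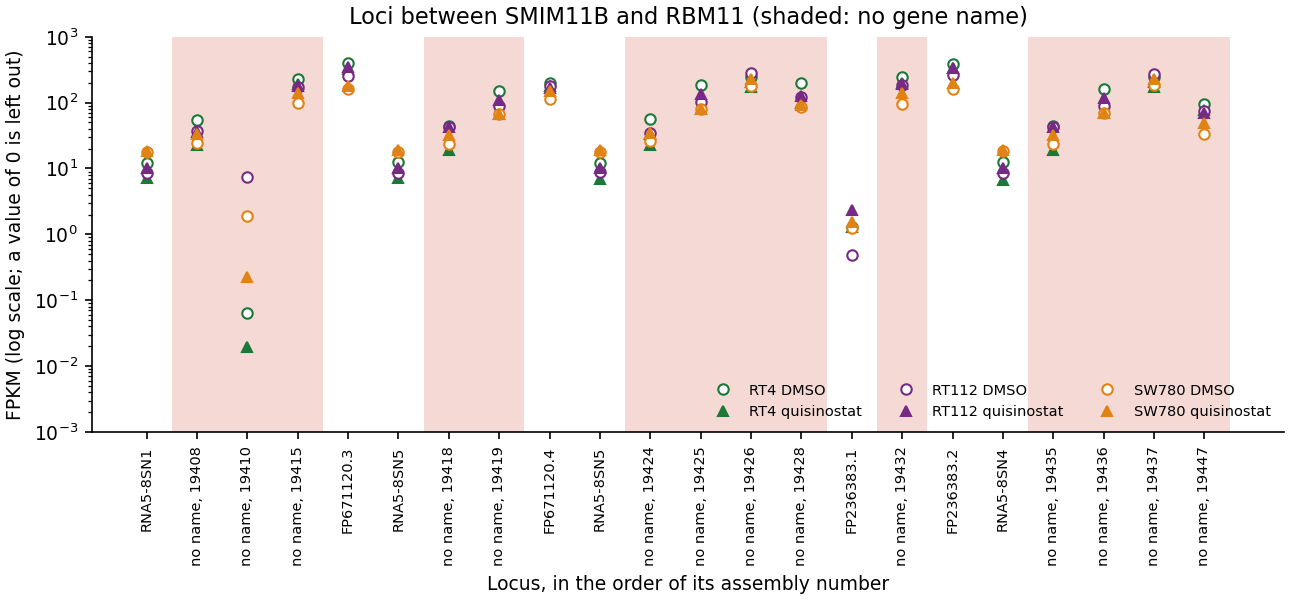
FPKM on a log axis of the 22 loci numbered between SMIM11B and RBM11 on chromosome 21, in the order of their numbers, with 1 point per library (open circles DMSO, filled triangles quisinostat, colours for the lines; the RT112 quisinostat value of MSTRG.19410 is 0 and is left out). Shaded loci have no gene name, and the member after each 5.8S locus sits at 18.9 to 56.1 FPKM in all 6 libraries.

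Of the 14 members in this stretch, 13 had a log2 ratio below -0.3 in RT4, with a median of -1.19, where 33.5% of all loci were below -0.3. In SW780 9 of the 14 were above 0.3, with a median of 0.37, where 33.5% of all loci were above it, and in RT112 the median was 0.02 over the 13 with a ratio. The named 5.8S loci had log2 ratios of -0.89 to -0.75 in RT4, 0.21 to 0.25 in RT112 and 0.04 to 0.07 in SW780. The other named loci of the stretch fell less or not at all in RT4. FP671120.3 had -0.31, FP236383.2 with FP236383.3 (1 locus) -0.21, FP671120.4 -0.13 and FP236383.1 0.03. The stretch was singled out after its values were seen, and these counts are a description.

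A further 19 members lay among 24 loci, all nameless, whose numbers run between ARRDC1, the last named locus of chromosome 9, and MT-TF, the first mitochondrial locus. The table gives no chromosome for them. The pair of loci described next was chosen after its values were seen. MSTRG.30535 had 44.8, 17.5, 23.5, 22.6, 18.8 and 24.0 FPKM in RT4 DMSO, RT4 quisinostat, RT112 DMSO, RT112 quisinostat, SW780 DMSO and SW780 quisinostat (the order used from here on). MSTRG.30499, numbered between ZMYND19 and ARRDC1, had 47.1, 18.8, 24.4, 23.8, 20.1 and 25.3 FPKM. Both are lowest in RT4 quisinostat and highest in RT4 DMSO, as are the 4 loci that follow a 5.8S locus directly. The highest of these 19 members was MSTRG.30554, whose number directly precedes that of MT-TF. It had 66.2, 102, 233, 139, 271 and 136 FPKM, higher with quisinostat in RT4 and lower in RT112 and SW780. MT-TF, the mitochondrial phenylalanine tRNA, had 42.6, 192, 62.1, 52.4, 20.5 and 16.8 FPKM. Its log2 ratios of 2.17, -0.24 and -0.28 had the same signs as those of MSTRG.30554.

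The members were expressed at lower levels than the named loci. The median over members, averaged over the 6 libraries, was 2.51 ± 0.253 FPKM (SD, n = 6 libraries), against 8.48 ± 0.380 for the named loci, and the library medians of the sets did not overlap (2.07 to 2.78 against 7.96 to 8.86). The closest annotated set, 237 loci with only clone-based, LINC or antisense names, the usual names of long noncoding RNAs (lncRNAs), had 3.13 ± 0.544 FPKM. Under a mean of 5 FPKM lay 510 members (77.2%) and 29.8% of the named loci. At the other end, 72 members (10.9%) had a mean of at least 10 FPKM, against 45.3% of the named loci. A mean of at least 100 was reached by 16 of the 661 members and 306 of the 8769 named loci. Of these 16 members, 6 were numbered between SMIM11B and RBM11, 6 between ARRDC1 and MT-TF, and 4 elsewhere. The FPKM of the members summed to between 3.07% of all FPKM in SW780 quisinostat and 6.75% in RT4 DMSO.

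**Figure D2:**
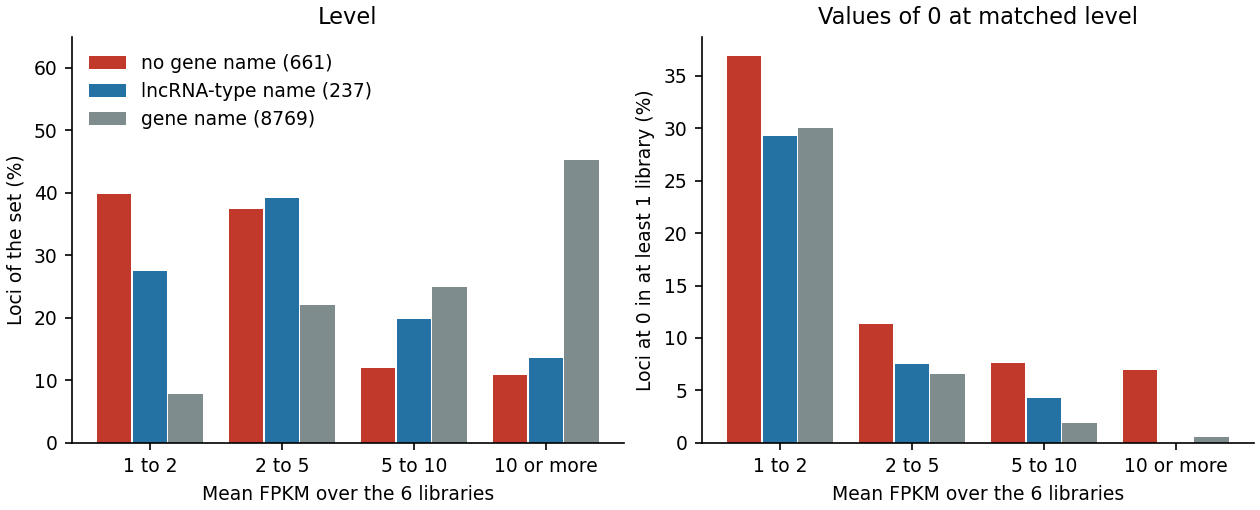
Left, the share in percent of the loci of each set in 4 classes of mean FPKM over the 6 libraries; right, the share of the loci of each class that were at 0 in at least 1 library. Red bars are loci without a gene name, blue bars loci with only lncRNA-type names, which are also counted in the grey bars for all named loci; in the lowest class 36.9% of the members and 30.1% of the named loci were at 0 somewhere.

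A value of 0 in at least 1 library was listed for 136 members, 20.6% (Wilson 95% interval 17.7 to 23.8%, which covers the number of loci and not the sampling of cultures), and for 4.52% of the named loci. Loci with lncRNA-type names lay between, at 11.8% (8.30 to 16.5%). By library the share of members at 0 was 9.53% in RT4 DMSO, 7.11% in RT4 quisinostat, 9.83% in RT112 DMSO, 3.48% in RT112 quisinostat, 3.48% in SW780 DMSO and 4.69% in SW780 quisinostat. In the named loci it lay between 0.798 and 2.18%. Within classes of mean level the shares were 36.9% against 30.1% for 1 to 2 FPKM, 11.3% against 6.58% for 2 to 5, and 7.59% against 1.88% for 5 to 10. At 10 FPKM or more they were 6.94% and 0.578%, so the difference was smaller in percentage points than over all loci in each class and not smaller as a ratio in the highest one. Loci with lncRNA-type names had 29.2%, 7.53%, 4.26% and 0% in these classes, below the members in each. Of the 661 members, more were at 0 only with DMSO than only with quisinostat in RT4 (30 and 14) and RT112 (45 and 3), and fewer in SW780 (8 and 16). The 8769 named loci had 68 and 49, 135 and 14, and 47 and 45. Over all 9430 loci the counts were 98 and 63, 180 and 17, and 55 and 61. The excess with DMSO in RT4 and RT112 was thus not particular to members.

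The highest member was MSTRG.16712, with 11641, 6329, 4801, 4072, 3171 and 1743 FPKM. It was lower with quisinostat in each line, with log2 ratios of -0.88, -0.24 and -0.86, and alone made up 0.735 to 4.41% of all FPKM in a library. It is numbered between TTC27, which ends at 32821051, and LTBP1, which starts at 32946972, on chromosome 2. The gap holds LINC00486, AL121656.1 and RF00019, none of them in the table. The position of the member is not known, so a place within the gap is not established. TTC27 had log2 ratios of -0.55, -0.82 and -0.59, and LTBP1, which encodes a binding protein of latent TGF-beta, 2.40, 2.01 and 1.70. The member thus had the direction of TTC27, and not that of LTBP1, in all 3 lines.

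Of the 10 highest members, 2 more lie outside the ribosomal stretch and the loci before MT-TF. MSTRG.12849 had 281, 148, 248, 160, 210 and 200 FPKM, and was lower with quisinostat in RT4 and RT112. It is numbered between COPRS, a histone-binding partner of an arginine methyltransferase, and UTP6, a ribosome biogenesis factor, on chromosome 17, where the gap is 1561 bp and holds no other annotated gene. Its number is 2 after that of COPRS and 9 before that of UTP6. Its position is not known, so a place within the gap is not established. COPRS was at 20.2 to 36.7 FPKM and UTP6 at 8.61 to 18.9 FPKM, so the member was above both in all 6 libraries. MSTRG.11442, between BCLAF1P2 and SHCBP1 on chromosome 16, had 96.9, 28.5, 208, 205, 149 and 121 FPKM, and its log2 ratios were -1.77 (RT4), -0.03 (RT112) and -0.30 (SW780). Its gap spans 12311904 bp, so the flanks say little about its place.

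The question put to each line was how many members were lower or higher with quisinostat. A locus was counted as lower below a log2 ratio of -0.3 and as higher above 0.3, among loci above 0 in both libraries; with 1 library per condition these counts have no replicate check. In RT4 203 of 584 members (34.8%) were lower and 262 (44.9%) higher, where over all 9181 loci 33.5% were lower and 40.3% higher. In RT112 217 of 593 (36.6%) were lower and 211 (35.6%) higher, against 25.4% and 35.7% of all loci. In SW780 198 of 622 (31.8%) were lower and 278 (44.7%) higher, against 27.9% and 33.5%. The lower share of RT112 and the higher share of SW780 each lay 11.2 percentage points above the background, and the other shares lay between -0.150 and 4.57 points from it. Among loci with a mean of at least 5 FPKM the balance turned in RT4, to 66 members lower and 42 higher, and in RT112 it became 58 lower and 30 higher. In RT4 these were 46.8% and 29.8%, against 32.2% and 37.8% of all loci at this level. In RT112 they were 38.4% and 19.9%, against 25.8% and 29.2%. At 10 FPKM or more 64.2% of members were lower in RT4, against 32.0% of named loci. Without the ribosomal stretch and the loci before MT-TF it was 52.2% of members.

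**Figure D3:**
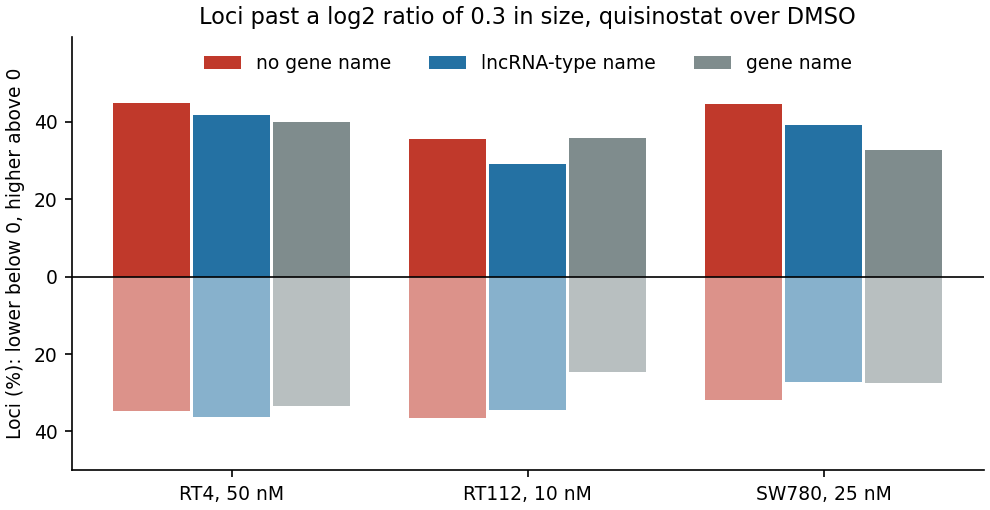
Share in percent of loci above 0 in both libraries of a line whose log2 ratio of quisinostat over DMSO was above 0.3 (full bars, upward) or below -0.3 (pale bars, downward), for loci without a gene name, loci with only lncRNA-type names and all named loci. In RT112 36.6% of the members were lower, against 24.6% of the named loci.

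The RT112 difference was present in each class of level and that of SW780 was not. The lower share was 31.0% of members against 19.6% of named loci at 1 to 2 FPKM, 40.2% against 23.5% at 2 to 5, 38.0% against 21.9% at 5 to 10, and 38.9% against 27.4% at 10 or more. The higher share in RT112, near the background over all loci, was below that of the named loci in each class, at 44.8% against 62.3%, 37.7% against 48.6%, 22.8% against 36.9% and 16.7% against 25.3%. Loci with lncRNA-type names had a lower share of 34.5% in RT112. In SW780 the higher share was 51.5% of members against 52.2% of named loci at 1 to 2 FPKM and 41.3% against 41.0% at 2 to 5. It was 39.5% against 33.6% at 5 to 10, and 39.4% against 25.2% at 10 or more, where it was 26% of members without the ribosomal stretch and the loci before MT-TF. Most members lie in the 2 lower classes, where the higher shares of SW780 were within 1 percentage point of those of the named loci. In RT4 the members of 10 FPKM or more had a median log2 ratio of -0.47, and of -0.38 without the ribosomal stretch and the loci before MT-TF, against 0.03 for named loci. The 32 loci with lncRNA-type names in this class had a median of -0.39, so the lower median was shared with them. The ratios of members were wider apart than those of named loci, with a median size of 0.89, 0.59 and 0.65 in RT4, RT112 and SW780 against 0.61, 0.39 and 0.40. At matched levels this was not so in RT4 under 10 FPKM, where the median size was 1.29 for members and 1.34 for named loci at 1 to 2 FPKM, 0.83 and 0.87 at 2 to 5, and 0.56 and 0.60 at 5 to 10. Nor was it so at 1 to 2 FPKM in RT112 (0.82 and 1.07) or SW780 (1.01 and 1.07). Past a log2 ratio of 1 in size, 108 members were lower and 155 higher in RT4 (background 14.0% and 18.0% of all loci, members 18.5% and 26.5%). The same counts were 71 and 111 in RT112 (background 3.60% and 13.4%, members 11.97% and 18.7%), and 85 and 116 in SW780 (background 7.18% and 11.1%, members 13.7% and 18.6%).

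In all 3 lines together, 39 of the 525 members above 0 in every library were lower (7.43%, where 5.00% of all 8898 loci were) and 76 were higher (14.5%, where 10.9% were). With a mean of at least 5 FPKM they were 10 and 9 (7.14% and 6.43%, where 4.88% and 8.34% of all loci were). Past a log2 ratio of 1 in size, 8 were lower (1.52%, where 0.258% of all loci were) and 22 higher (4.19%, where 2.61% were). By limma on log2(FPKM + 1) with the line as block, 0 of 661 members and 0 of all 9430 loci (0.00%) had an adjusted p under 0.05. Without adjustment 31 members were lower and 52 higher at a p under 0.05, which is 4.69% and 7.87% of them, where 4.16% and 9.68% of all loci were. After quantile normalization the split was turned, with 52 members lower and 22 higher at a p under 0.05. The members named next were picked by the size of their smallest ratio and passed no test.

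MSTRG.7519 was the lowest by this measure. It had 3.64, 0.0228, 2.22, 0.0498, 2.28 and 0.0400 FPKM, so each quisinostat value was under 0.1 and each DMSO value above 2, with log2 ratios of -7.32, -5.48 and -5.84. The limma estimate on the log2(FPKM + 1) scale, which understates low values, was -1.82 ± 0.351 (SE; adjusted p = 0.245). Its flanks on chromosome 12 are RHOF and PSMD9, a proteasome assembly chaperone, and the gap of 85327 bp holds SETD1B, HPD, AC079360.1 and AC069503.3, which the table does not list. PSMD9 had log2 ratios of -0.06, 1.34 and 0.90.

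MSTRG.30202 had 2.38, 0.0184, 3.48, 0.760, 2.04 and 0.465 FPKM. It is numbered between PPP6C, a phosphatase subunit, and HSPA5, the main chaperone of the endoplasmic reticulum, on chromosome 9. RABEPK and RPSAP76 are annotated in the gap. HSPA5 was higher with quisinostat in RT4 and SW780 (log2 ratios of 0.70 and 0.82) and lower in RT112 (-0.27). MSTRG.3933, between MRPL43 and SFXN3 on chromosome 10 with LZTS2 in the gap, had 4.02, 1.06, 1.46, 0.245, 1.98 and 0.212 FPKM. SFXN3, a mitochondrial serine carrier, was higher in the 3 lines (2.28, 0.56 and 0.85), and MRPL43 had log2 ratios of -1.02, 0.46 and 0.21.

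MSTRG.21745, between ATP1B3 and GK5 on chromosome 3 with TFDP2, an E2F partner, in the gap, had 2.27, 0.150, 4.88, 1.63, 2.33 and 0.369 FPKM. GK5 had log2 ratios of -0.11, -0.52 and -0.45, and ATP1B3 0.81, -0.35 and 0.16. MSTRG.14401, between MTCO2P2 and DYM on chromosome 18, had 13.2, 2.85, 1.67, 0.149, 1.84 and 0.649 FPKM. MTCO2P2 had log2 ratios of -1.36, -0.42 and -0.98, and DYM 0.92, 0.02 and 0.50. All 5 of these members had every quisinostat value below the DMSO value of its line, though MSTRG.14401 with quisinostat in RT4 was above its DMSO values in RT112 and SW780.

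**Figure D4:**
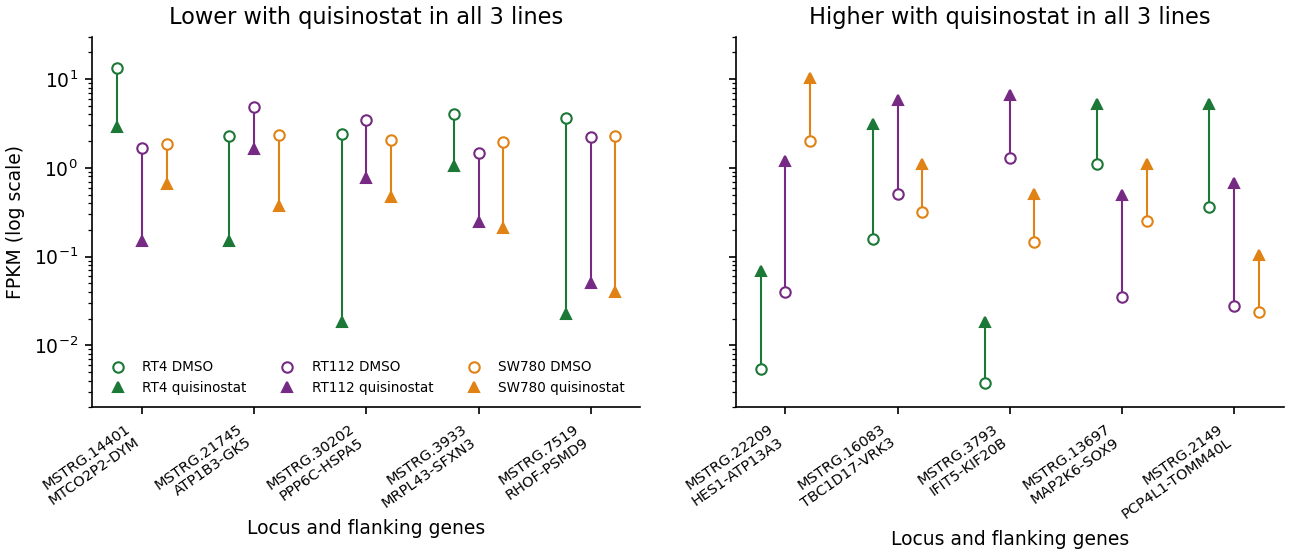
FPKM on a log axis of the 5 members with the most negative (left) and the 5 with the most positive (right) smallest log2 ratio over the 3 lines, each named with its flanking genes. A line joins the DMSO library (open circle) to the quisinostat library (filled triangle) of 1 cell line; MSTRG.7519 is above 2 FPKM in the 3 DMSO libraries and under 0.1 in the 3 quisinostat libraries.

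Among members higher in all lines, MSTRG.22209 had 0.00535, 0.0684, 0.0395, 1.19, 2.02 and 10.2 FPKM, so it reached 1 FPKM only in RT112 quisinostat and in SW780. It is numbered between HES1, a repressor in Notch signalling, and ATP13A3, a polyamine transporter, on chromosome 3. The gap of 263939 bp has LINC02036, LINC02037, LINC02048 and LINC00887 among its annotated genes. HES1 had log2 ratios of -0.55, 0.86 and -0.60, and so did not follow the direction of the member in RT4 and SW780. ATP13A3 had 0.59, -0.38 and 0.16, and so did not follow it in RT112.

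MSTRG.2149 had 0.363, 5.23, 0.0280, 0.683, 0.0239 and 0.105 FPKM. Its number comes directly between those of PCP4L1 and TOMM40L on chromosome 1. GENCODE places these genes in the other order, with TOMM40L ending at 161230744 and PCP4L1 starting at 161258727. The flanks therefore define no gap for the member, and a place beside PCP4L1 is not established. PCP4L1 had 9.73, 54.1, 0.478, 2.87, 0.0869 and 0.458 FPKM, and the order of the lines, RT4 then RT112 then SW780, was the same in the 2 loci. The log2 ratios were 3.85, 4.61 and 2.14 for the member and 2.47, 2.58 and 2.40 for PCP4L1, while TOMM40L had 0.33, 0.12 and 0.30.

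MSTRG.16083, between TBC1D17 and VRK3 on chromosome 19, had 0.158, 3.09, 0.507, 5.79, 0.317 and 1.12 FPKM, with IL4I1, SIGLEC11 and SIGLEC16 in the gap. MSTRG.13697, numbered between MAP2K6 and SOX9, which are 2567158 bp apart on chromosome 17, had 1.11, 5.17, 0.0352, 0.496, 0.254 and 1.11 FPKM. SOX9, a transcription factor of epithelial progenitors, was lower in RT4 and RT112 (-1.28 and -0.89) and higher in SW780 (1.03). MSTRG.3793, numbered directly after the interferon-induced gene IFIT5 on chromosome 10, had 0.00374, 0.0185, 1.29, 6.67, 0.146 and 0.502 FPKM, and its RT4 values were both near 0.

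One member, MSTRG.19189, was at 0 in all 3 DMSO libraries and above 0 in all 3 quisinostat libraries, at 0.979 FPKM in RT4, 3.56 in RT112 and 2.74 in SW780. No member showed the reverse. Of the named loci 5 showed the first pattern and 0 the reverse. MSTRG.19189 is numbered between SLC9A8, a sodium-proton exchanger, and RNF114, a ubiquitin ligase, on chromosome 20, and SPATA2 is annotated in the gap of 44093 bp. No fold is given because FPKM values allow no floor for a 0.

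Some members were seen in 1 line. With both libraries of a line at 1 FPKM or more and the other 4 under 0.1, there were 3 members in RT4, 9 in RT112 and 11 in SW780, and 34, 4 and 13 of the 8769 named loci. Such loci reached a mean of 1 FPKM only through the line where they were high, so these counts describe them and support nothing about members as a whole. As shares they were 0.454%, 1.36% and 1.66% of members, 0.388%, 0.0456% and 0.148% of named loci, and 0%, 0.422% and 2.53% of loci with lncRNA-type names. The converse, absence from 1 line, was most frequent for RT4, with 13 members (1.97%), 0.262% of the named loci and 1.27% of loci with lncRNA-type names.

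By the ratio of the line's mean to that of the others, which allows some signal in them, the 3 leading members of RT112 were MSTRG.31383, MSTRG.24529 and MSTRG.26370. MSTRG.24529 had 0, 0, 228, 132, 1.10 and 15.1 FPKM. It lies on chromosome 5 and is numbered directly before SPOCK1, which encodes a matrix proteoglycan and was higher with quisinostat in the 3 lines (log2 ratios of 2.95, 2.04 and 2.75). MSTRG.26370, between LTV1 and RAB32 on chromosome 6, had 0, 0, 101, 63.2, 2.81 and 4.39 FPKM. MSTRG.31383, between PLS3 and WDR44 on chromosome X, had 0, 0, 69.1, 41.2, 0 and 0.00667 FPKM. All 3 were listed at 0 in both RT4 libraries and were lower with quisinostat in RT112, with log2 ratios of -0.79, -0.68 and -0.75.

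In RT4 the leading members were MSTRG.26852, between HOXA11 and HIBADH at the end of the HOXA cluster of body-axis regulators on chromosome 7, MSTRG.10166, between HMGB1P6 and PKM on chromosome 15, and MSTRG.30526, among the loci before MT-TF. MSTRG.26852 had 12.05, 11.9, 0, 0.800, 0.907 and 0.738 FPKM. In SW780 they were MSTRG.12442, between SCO1 and MAP2K4 on chromosome 17, at 21.9 FPKM with DMSO and 18.1 with quisinostat, MSTRG.22196, between MB21D2 and OPA1 on chromosome 3, at 17.0 and 8.92, and MSTRG.15917, between AC007785.1 and IGFL2-AS1 on chromosome 19, at 5.01 and 16.9. MSTRG.15917 was the one of the 3 with a higher value after quisinostat. Its flanking genes overlap, with AC007785.1 ending at 46196218 and IGFL2-AS1 starting at 46189166, so they define no gap for it.

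The direction of each member was set beside that of its flanking loci. The sign of a member's log2 ratio was that of the mean of its flanks for 333 of 562 members in RT4 (59.3%), 321 of 571 in RT112 (56.2%) and 311 of 596 in SW780 (52.2%). Named loci treated in the same way gave 62.4%, 57.8% and 56.4%. Across loci, which share libraries and are not independent, the Spearman correlation between a member's ratio and that of its flanks was 0.18, 0.12 and 0.11, against 0.34, 0.20 and 0.19 for named loci. The mean FPKM of a member was below the mean of its flanks for 540 of 634 members (85.2%), and for 56.2% of the named loci.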

How the data were processed

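RNA-seq libraries of 6 samples (RT4, RT112 and SW780, each with DMSO or quisinostat) were made with a stranded polyA kit. Per the labels and the study's methods, the authors trimmed reads with Trimmomatic 0.36, aligned them to GRCh38 with HISAT2 2.2.1, and assembled transcripts with StringTie 2.2.1, and deposited FPKM values per locus. Annotation release and depth are not given in the sources used here. From these values, loci were taken once per identifier, and a missing name was written as NA. Plain log2 ratios of quisinostat over DMSO were computed for loci above 0 in both libraries (limits 0.3 and 1). limma 3.58.1 (R 4.3.3) was fitted to log2(FPKM + 1) of the loci that passed the limit (mean of 1 FPKM), using line as block, trend and Benjamini-Hochberg adjustment. The libraries pair by cell line, as the labels give it. The script was tested on simulated data. Python 3.11.15, pandas 2.3.3 and SciPy 1.17.1 were used. Flanks came from GENCODE 29.

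The members and lists were chosen with earlier results of these data known. Named were the 10 members of highest mean, the 5 lowest and 5 highest by the smallest of the 3 ratios, 3 per line by its mean over that of the other lines (1 added to each), 3 on each side of the limit, and members at 0 in all libraries of one treatment and above 0 in all of the other, with their flanks. Alternatives were other pseudocounts, limits, scalings and sets of loci.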

Additional observations from a re-analysis of the deposited data

Results flagged for a closer look

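Of the 525 members above 0 in all libraries, 207 (39.4%) were below a log2 ratio of -0.3 in 1 line and above 0.3 in another, against 28.2% of the named loci. Among the members named here or above, 20 showed such opposite directions, and the difference between lines was not tested for any of them, since each line had 1 library per treatment at its own dose. The gap between the highest and the lowest log2 ratio was 4.58 for MSTRG.24529 (RT112 -0.79, SW780 3.79), 1.61 for MSTRG.30554 (RT4 0.62, SW780 -0.99) and 1.52 for MSTRG.22196 (RT4 0.59, SW780 -0.93). It was 1.44 for MSTRG.10561 (RT4 0.78, RT112 -0.66) and 1.32 for MSTRG.26370 (RT112 -0.68, SW780 0.64). MSTRG.19426, MSTRG.19437, MSTRG.19432 and MSTRG.30539, all lower in RT4 and higher in SW780, had gaps of 0.84, 0.85, 0.86 and 0.71. The loci that follow a 5.8S locus directly, MSTRG.19408, MSTRG.19418, MSTRG.19424 and MSTRG.19435, also lower in RT4 and higher in SW780, had gaps of 1.66, 1.67, 1.67 and 1.63. MSTRG.19419, MSTRG.19425 and MSTRG.19436, lower in RT4 and higher in RT112, had 1.49, 1.61 and 1.62. MSTRG.30499 and MSTRG.30535 had 1.65 and 1.71, and MSTRG.30510 and MSTRG.30536, lower in RT4 and RT112 and higher in SW780, had 0.87 and 0.89.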

How the results depend on the processing

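Of 90 values recomputed under alternatives, 69 stayed within 1.5 times the reported count or within the spread, and 21 moved. With a mean of at least 5 FPKM, which leaves fewer loci, lower and higher members were 66 and 42 in RT4, 58 and 30 in RT112, 33 and 58 in SW780, and 10 and 9 in all 3 lines, so that lower members outnumbered higher ones in RT4 and in all 3 lines together, where they had not before. As shares of members these were 46.8% and 29.8%, 38.4% and 19.9%, 22.4% and 39.5%, and 7.14% and 6.43%. Over all loci at this level the shares were 32.2% and 37.8%, 25.8% and 29.2%, 25.9% and 28.4%, and 4.88% and 8.34%. At a log2 limit of 1 lower and higher members were 108 and 155, 71 and 111, 85 and 116, and 8 and 22. The share of members at 0 somewhere was 36.0% without the filter, 7.28% at 5 FPKM or more, and 29.7% when values under 0.1 FPKM counted as 0. Without the filter the median level was 1.57 FPKM for nameless and 7.94 for named loci. An alternative added after the data were seen left out the ribosomal stretch and the loci before MT-TF, and 181 and 260 members were then lower and higher in RT4, 211 and 204 in RT112, and 193 and 259 in SW780. limma called 0 members under each setting, with no replicate block (0), and without RT4, RT112 or SW780 (0 to 0). At an unadjusted p under 0.05 it gave 52 lower and 22 higher members after quantile normalization, where the reported fit gave 31 and 52, so this split depends on the scaling. It gave 11 and 8 without the block, 22 and 32 without RT4, 48 and 65 without RT112, and 17 and 22 without SW780. In simulated data with 100 loci changed by 2 and 100 by 3 on the log2 scale among 9430, limma called 61 and 76 of them and 8 unchanged loci, so 0 calls do not show that no member changed. Leaving out identifiers that also carry a named row gave no other value, since there were none. GC content could not be examined for members, which have no sequence in the files, and its part in the results was not tested.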
